A study of Arabidopsis thaliana with 48 samples.

Results

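The nuclear genes for the light-harvesting antenna, both photosystems and Rubisco formed a set of 43 genes among the 27206 genes of the deposited count table. The members were taken as listed locus identifiers and fell into 6 roles, which were 4 LHCA genes of the photosystem I antenna, 9 genes of the major photosystem II antenna (LHCII), 4 genes of the minor photosystem II antenna, 9 photosystem II subunits, 12 photosystem I subunits and 5 genes for the small subunit and the activase of Rubisco. All 43 passed the filter on low counts and were tested, and no member had fewer than 18 reads in any library. The label held in the annotation, since every member carried the RefSeq symbol of its family or an older name of it and none was a plastid gene.

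Shoot apices of Arabidopsis thaliana, described as enriched for the apical meristem, were collected from plants kept in short days for 3, 4, 5 or 6 weeks from sowing. RNA was sequenced from 3 biological replicates per genotype and week, each a pool of 15 apices. The 4 genotypes were chr4-2, a mutant of the chromatin remodeller gene CHR4, qem2, the quintuple mutant svp flc ft tsf soc1 (called quintuple here), and WT, the accession col. The study compared chr4-2 with WT, qem2 with quintuple and quintuple with WT, and it is known of the study that qem2 was recovered by mutagenesis of the quintuple mutant and carries a change in CHR4, so that qem2 shares the mutations of quintuple. The labels named no allele of the quintuple mutant, and each mutant was represented by 1 line.

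The antenna proteins LHCA and LHCB bind chlorophyll and pass the absorbed light energy to the reaction centres of photosystem I and photosystem II. The subunits encoded by PSA and PSB genes of the nucleus join plastid-encoded proteins in those photosystems, and the small subunit of Rubisco, encoded by the RBCS genes, joins a plastid-encoded large subunit in the enzyme that fixes carbon dioxide. These genes are known for strong expression in green leaf cells, for low expression in the meristem itself and for control by light through promoter elements such as the G-box.

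The photosystem I antenna was represented by LHCA1 (AT3G54890), LHCA2 (AT3G61470), LHCA3 (AT1G61520) and LHCA4 (AT3G47470). The major LHCII genes, whose proteins form the mobile and bound trimers of photosystem II, were LHCB1.1 (AT1G29920), LHCB1.2 (AT1G29910), LHCB1.3 (AT1G29930), LHCB1.4 (AT2G34430), LHCB1.5 (AT2G34420), LHCB2.1 (AT2G05100), LHCB2.2 (AT2G05070), LHCB2.3 (AT3G27690) and LHCB3 (AT5G54270). The minor antenna genes, whose proteins sit as monomers between the trimers and the photosystem II core, were LHCB4.1 (AT5G01530), LHCB4.2 (AT3G08940), LHCB5 (AT4G10340) and LHCB6 (AT1G15820).

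Photosystem II subunits were PSBO1 (AT5G66570), PSBO2 (AT3G50820), PSBP1 (AT1G06680), PSBQ1 (AT4G21280) and PSBQ2 (AT4G05180) of the oxygen-evolving complex and the small proteins PSBR (AT1G79040), PSBW (AT2G30570), PSBX (AT2G06520) and PSBY (AT1G67740). Photosystem I subunits were PSAD1 (AT4G02770), PSAD2 (AT1G03130), PSAE1 (AT4G28750) and PSAE2 (AT2G20260) of the stromal side, PSAF (AT1G31330), PSAG (AT1G55670), PSAH1 (AT3G16140), PSAH2 (AT1G52230), PSAK (AT1G30380), PSAL (AT4G12800), PSAN (AT5G64040) and PSAO (AT1G08380). The Rubisco members were the small subunit genes RBCS1A (AT1G67090), RBCS1B (AT5G38430), RBCS2B (AT5G38420) and RBCS3B (AT5G38410) and the activase gene RCA (AT2G39730).

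The RBCS and LHCB1 families are shown by the first 54 coding bases of each gene, because the results below turn on differences between close copies. The sequences are from RefSeq for assembly TAIR10.1 and read 5′ to 3′ on the gene's strand. In the RBCS genes, capitals mark bases that differ from RBCS1A, of which there were 8 in RBCS1B, 9 in RBCS2B and 7 in RBCS3B. RBCS1A lies on the minus strand at chr1:25049196-25049249, and RBCS1B (chr5:15385102-15385155), RBCS2B (chr5:15381925-15381978) and RBCS3B (chr5:15378253-15378306) lie next to each other on the minus strand of chromosome 5.
RBCS1A: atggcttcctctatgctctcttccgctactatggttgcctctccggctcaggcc
RBCS1B: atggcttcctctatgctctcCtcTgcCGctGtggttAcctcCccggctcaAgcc
RBCS2B: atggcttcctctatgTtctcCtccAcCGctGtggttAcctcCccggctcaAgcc
RBCS3B: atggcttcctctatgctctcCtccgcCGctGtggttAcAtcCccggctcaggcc

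Over the whole coding sequence, RBCS1A shared 90.4% to 90.6% of bases with the chromosome 5 genes, while RBCS1B and RBCS2B shared 97.3%. In the LHCB1 genes, capitals mark bases that differ from LHCB1.3. LHCB1.3 (chr1:10478071-10478124, plus strand), LHCB1.1 (chr1:10475839-10475892, minus strand) and LHCB1.2 (chr1:10473193-10473246, minus strand) are neighbours on chromosome 1. LHCB1.4 (chr2:14524818-14524871, plus strand) and LHCB1.5 (chr2:14523460-14523513, minus strand) are neighbours on chromosome 2.
LHCB1.3: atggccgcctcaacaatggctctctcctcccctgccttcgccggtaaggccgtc
LHCB1.1: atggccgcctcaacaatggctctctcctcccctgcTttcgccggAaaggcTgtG
LHCB1.2: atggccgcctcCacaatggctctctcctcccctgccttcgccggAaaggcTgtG
LHCB1.4: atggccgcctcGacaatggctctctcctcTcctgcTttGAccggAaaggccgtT
LHCB1.5: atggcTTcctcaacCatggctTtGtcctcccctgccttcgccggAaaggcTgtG

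LHCB1.3 shared 96.1% of coding bases with LHCB1.1, 96.4% with LHCB1.2, 90.0% with LHCB1.5 and 87.4% with LHCB1.4. Of all 50-base words in the annotated transcript, 71.8% (LHCB2.2) to 100% were found in no other gene. The share was 86.0% in RBCS1B, 78.6% in RBCS2B, 79.5% in LHCB1.1 and 86.3% in LHCB1.4. How reads that match several copies were counted is not given in the sources used here, so the split of counts between copies of RBCS, LHCB1 and LHCB2 is uncertain, and sums over each family are given below.

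Promoters are shown for 3 members of different roles whose 250 bases before the annotated gene start held several of the motifs searched, chosen after their values were seen. They are shown to set RBCS2B and PSAH2, which fell between 3 and 6 weeks in all 4 genotypes, beside LHCA4, which was called in none. Other members called lower in all 4 genotypes, such as RBCS1A, RBCS3B, PSAE1 and PSBP1, held none of the motifs searched, whereas PSBQ1 and RCA held some. A link between motifs and the fall was not tested. Capitals mark the G-box CACGTG, the I-box GATAAG and the CCAATC sequence known from GLK target promoters, each on either strand (CTTATC and GATTGG are the reverse strand of the last pair). RBCS2B (chr5:15382072-15382321, minus strand) held 1 G-box and 3 I-boxes, PSAH2 (chr1:19454548-19454797, plus strand) held 2 G-boxes and 1 I-box, and LHCA4 (chr3:17495034-17495283, minus strand) held 1 G-box and 2 CCAATC sequences.
RBCS2B: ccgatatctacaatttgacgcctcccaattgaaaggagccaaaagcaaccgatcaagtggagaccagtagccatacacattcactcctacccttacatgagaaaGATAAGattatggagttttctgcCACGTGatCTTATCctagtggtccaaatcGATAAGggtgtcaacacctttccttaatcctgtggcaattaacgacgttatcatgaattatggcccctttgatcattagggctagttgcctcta
PSAH2: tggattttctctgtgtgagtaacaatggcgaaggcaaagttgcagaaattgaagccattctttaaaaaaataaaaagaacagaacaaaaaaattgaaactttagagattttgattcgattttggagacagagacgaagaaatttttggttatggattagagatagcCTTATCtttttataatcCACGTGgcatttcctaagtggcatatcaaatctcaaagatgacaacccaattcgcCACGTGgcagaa
LHCA4: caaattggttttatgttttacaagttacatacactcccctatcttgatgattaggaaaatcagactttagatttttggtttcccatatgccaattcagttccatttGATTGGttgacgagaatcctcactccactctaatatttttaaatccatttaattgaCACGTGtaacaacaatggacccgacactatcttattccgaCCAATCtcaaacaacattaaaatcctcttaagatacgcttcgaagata

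The G-box was present in this window in 9 of 43 members (20.9%), against 6.6% of the 26718 genes with such a window. The I-box was present in 11 members (25.6%), against 12.2% of all genes, and CCAATC in 12 members (27.9%), against 10.1% of all genes. The evening element core AATATCT was present in 5 members (11.6%), against 10.1% of all genes. The letters of none of these 4 motifs are contained in another, and a match describes the letters of the window, which ends at the annotated gene start and may lie far from the coding start.

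Depth ranged from 2910606 reads (qem2, 6 weeks, replicate 1) to 19748987 reads (quintuple, 3 weeks, replicate 1), with a median of 14184943 over 47 libraries. The members held 2.061% (chr4-2, 5 weeks, replicate 2) to 4.875% (chr4-2, 3 weeks, replicate 1) of a library's reads. The column for replicate 3 of qem2 at 5 weeks equalled replicate 3 of quintuple at 5 weeks at all 27206 genes and was left out, so that qem2 at 5 weeks had 2 libraries. Which of these genotypes the shared library came from is not known. It was kept as quintuple, and every result below that uses quintuple at 5 weeks carries this limit. CHR4 measured 65.3 to 111 CPM (reads of a gene in 1000000 reads of its library, scaled by library composition) in chr4-2, against 159 to 241 CPM in WT, and 238 to 328 CPM in qem2, against 166 to 274 CPM in quintuple. SVP measured 33.2 to 68.9 CPM in quintuple, against 77.2 to 148 CPM in WT, whereas SOC1 measured 4.88 to 10.8 CPM in quintuple and 1.23 to 8.21 CPM in WT. FLC measured 3.48 to 13.2 CPM in quintuple, within the 2.63 to 23.2 CPM of WT, so that its level and that of SOC1 did not separate these genotypes. FT and TSF were at 0.333 CPM or less in every library and check nothing.

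Per kilobase of annotated exon, LHCB1.3 had the highest mean level over the 47 libraries of any gene, at 6728 CPM per kilobase. LHCB1.5 had rank 3 with 2228 and RBCS1A rank 8 with 1705 CPM per kilobase among 26719 genes with a length, and 11 members were among the top 100 genes. LHCB1.2 (889 CPM per kilobase), LHCA4 (875) and LHCB5 (857) followed with nearly equal levels. In WT at 6 weeks LHCA4 measured 863 ± 106 and LHCB5 measured 892 ± 79.9 CPM per kilobase (SD, n = 3), so that these neighbours in the order did not differ beyond their spread. The lowest members were PSBO2 (106 CPM per kilobase), RBCS2B (76.7), LHCB1.4 (60.7), LHCB2.3 (52.2) and RBCS1B (18.1).

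Most members were lower at 6 than at 3 weeks in every genotype. The 43 members summed to 25060 ± 3812 CPM at 6 weeks and 41950 ± 12030 CPM at 3 weeks in chr4-2 (SD, n = 3 each). In qem2 the sums were 26160 ± 3459 CPM at 6 weeks and 29790 ± 3752 CPM at 3 weeks. Those in quintuple were 22980 ± 2753 CPM at 6 weeks and 35130 ± 5428 CPM at 3 weeks, and those in WT were 31840 ± 2794 CPM at 6 weeks and 37170 ± 4788 CPM at 3 weeks. The sums overlapped between the weeks in qem2 and WT and did not overlap in chr4-2 and quintuple. In bulk apices, fewer green cells and less RNA per cell cannot be told apart.

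**Figure D1:**
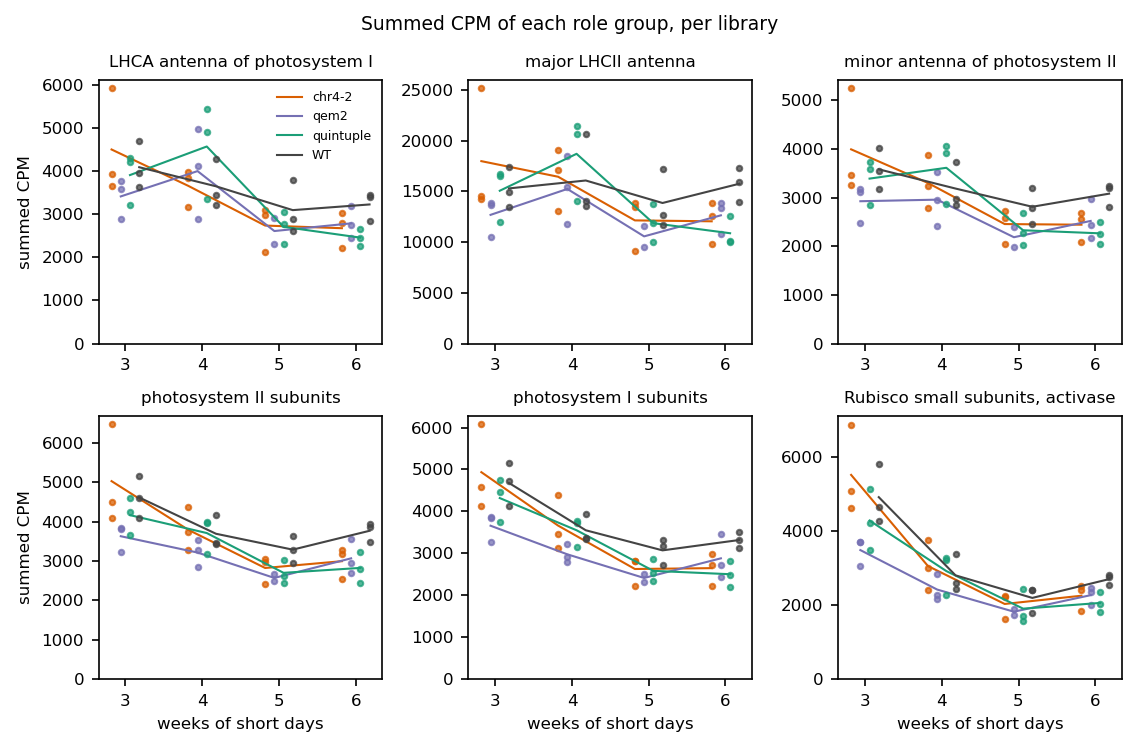
Summed CPM of the members of each of the 6 roles (vertical axis, linear, from 0) by weeks of short days (horizontal axis). Points are libraries, coloured by genotype, and lines join the group means of 3 libraries (2 in qem2 at 5 weeks). In WT the Rubisco sum averaged 2700 CPM at 6 weeks and 4914 CPM at 3 weeks, whereas the major LHCII sum averaged 15750 CPM at 6 weeks and 15290 CPM at 3 weeks.

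By edgeR's quasi-likelihood test with Benjamini-Hochberg adjustment over 19566 genes, 36 of 43 members were lower at 6 than at 3 weeks in chr4-2, where 23.1% of all genes tested were called lower. In qem2, 16 members were called lower (17.5% of all genes). The count was 35 in quintuple (21.0% of all genes) and 23 in WT (19.2% of all genes). No member was called higher in any genotype, where 22.9%, 18.0%, 20.5% and 18.8% of all genes were called higher in chr4-2, qem2, quintuple and WT, and none was higher even at an unadjusted p under 0.05 or by DESeq2. The median log2 fold change of the members was -0.90 in chr4-2, -0.28 in qem2, -0.77 in quintuple and -0.45 in WT, whereas that of all genes was at most 0.01 in size. Without replicate 1 of chr4-2 at 3 weeks, the library with the largest share of member reads, 28 members were called in chr4-2. The count in qem2 was 9 without replicate 2 at 6 weeks, and that in WT was 13 without replicate 1 at 3 weeks.

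In 16 members the call was made in all 4 genotypes. These were LHCA2 and LHCA3, LHCB1.4, PSBO2, PSBP1 and PSBQ1, PSAD1, PSAE1, PSAF, PSAH2 and PSAN, and all 5 Rubisco members. In 5 members, LHCA4, LHCB1.3, LHCB2.3, LHCB4.2 and PSBR, it was made in none, and 4 of those 5 encode antenna proteins.

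**Figure D2:**
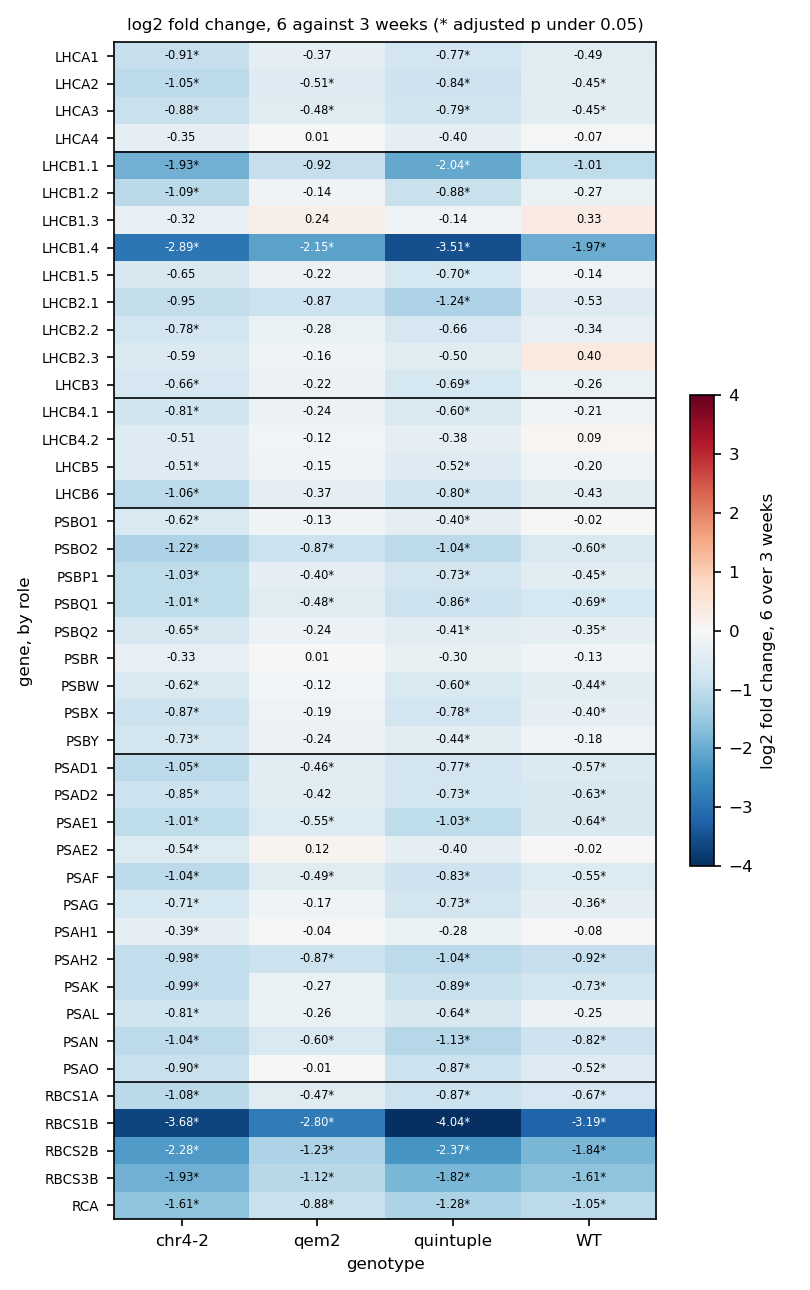
Log2 fold change of each member between 6 and 3 weeks (colour and printed value) in chr4-2, qem2, quintuple and WT (columns), with members ordered by role (rows, separated by lines). Asterisks mark an adjusted p under 0.05 by edgeR, and the Rubisco members at the bottom carry an asterisk in every column, with RBCS1B the lowest.

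The genes of Rubisco fell in all 4 genotypes, and the minor small subunit genes fell further than the main gene RBCS1A. RBCS1B measured 13.0, 13.6 and 6.64 CPM at 6 weeks in chr4-2, against 147, 132 and 143 CPM at 3 weeks. In qem2 it measured 11.7, 7.49 and 10.8 CPM at 6 weeks, against 72.6, 55.8 and 71.5 CPM at 3 weeks. The values in the 6-week libraries of both mutants lay below every 3-week library of the same mutant. In quintuple, RBCS1B measured 8.37, 3.54 and 5.52 CPM at 6 weeks, against 76.8, 73.0 and 140 CPM at 3 weeks. WT libraries held 11.4, 7.70 and 17.1 CPM at 6 weeks, against 139, 98.2 and 108 CPM at 3 weeks. Again no 6-week library reached the range of the 3-week libraries. The log2 fold change was -3.68 ± 0.52 (SE, adjusted p = 1.16e-06) in chr4-2, -2.80 ± 0.54 (adjusted p = 0.000154) in qem2, -4.04 ± 0.54 (adjusted p = 6.08e-07) in quintuple and -3.19 ± 0.51 (adjusted p = 1.11e-05) in WT.

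RBCS1A, the copy with the highest level per kilobase, measured 1991, 1876 and 1441 CPM at 6 weeks in chr4-2, against 4597, 3418 and 3202 CPM at 3 weeks. In WT it measured 2161, 2171 and 1979 CPM at 6 weeks, against 3875, 3229 and 2948 CPM at 3 weeks. The groups did not overlap in either genotype, and its log2 fold changes ran only from -1.08 in chr4-2 to -0.47 in qem2. RBCS2B had log2 fold changes of -2.28, -1.23, -2.37 and -1.84 in chr4-2, qem2, quintuple and WT, and RBCS3B had values of -1.93, -1.12, -1.82 and -1.61 in the same order. RCA, the activase that removes inhibitory sugar phosphates from Rubisco, had values of -1.61, -0.88, -1.28 and -1.05. With the counts of the 3 chromosome 5 genes summed before the fit, the family fell by 2.18 ± 0.27 (SE) on the log2 scale in chr4-2 (adjusted p = 1.3e-07), by 1.28 ± 0.27 in qem2 (adjusted p = 0.000372), by 2.12 ± 0.27 in quintuple (adjusted p = 2.28e-07) and by 1.81 ± 0.27 in WT (adjusted p = 3.4e-06). The summed level was 226 ± 27.8 CPM at 6 weeks and 794 ± 184 CPM at 3 weeks in WT (SD, n = 3 each).

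**Figure D3:**
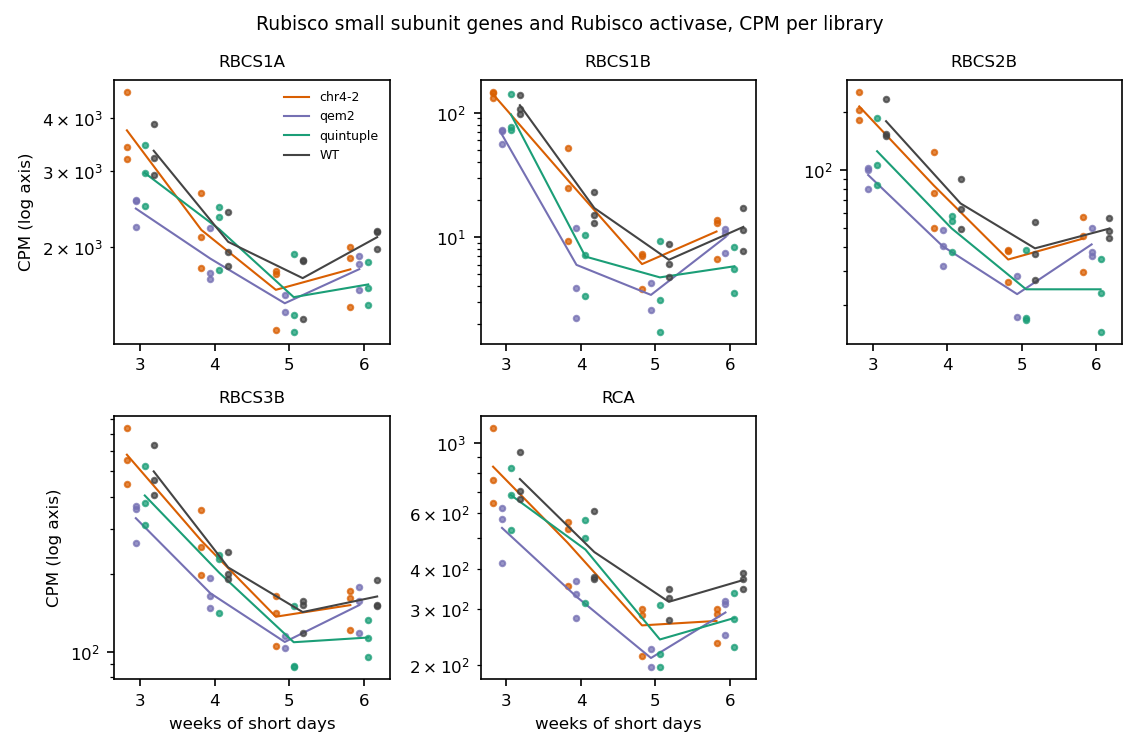
CPM of the RBCS genes and RCA per library on logarithmic vertical axes, by weeks of short days (horizontal axis), with lines through the group means of each genotype. RBCS1B fell to between 6.64 and 13.6 CPM at 6 weeks in chr4-2, against 132 to 147 CPM at 3 weeks, while RBCS1A measured 1266 CPM or more in every library.

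The photosystem I subunits were called lower in 12 of 12 members in chr4-2, 5 in qem2, 10 in quintuple and 9 in WT. Of all genes, 23.1%, 17.5%, 21.0% and 19.2% were called lower in the same order. PSAH2, a small subunit at the docking site for mobile LHCII, fell by a similar amount in all 4 genotypes. It measured 137, 164 and 102 CPM at 6 weeks in chr4-2, against 255, 275 and 264 CPM at 3 weeks. In qem2 it measured 110, 124 and 130 CPM at 6 weeks, against 225, 208 and 234 CPM at 3 weeks. No library at 6 weeks reached the lowest at 3 weeks in these mutants. In quintuple it measured 140, 121 and 138 CPM at 6 weeks, against 285, 225 and 310 CPM at 3 weeks, and in WT 169, 147 and 156 CPM at 6 weeks, against 333, 295 and 266 CPM at 3 weeks, again with no overlap. Its log2 fold change was -0.87 ± 0.14 (SE) in qem2 (adjusted p = 8.49e-06) and -0.92 ± 0.14 in WT (adjusted p = 2.51e-06), and its values in chr4-2 (-0.98) and quintuple (-1.04) were close to these.

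Other photosystem I members varied more between genotypes. Over the 12 subunits the log2 fold changes ran from -1.05 to -0.39 in chr4-2, from -0.87 to 0.12 in qem2, from -1.13 to -0.28 in quintuple and from -0.92 to -0.02 in WT. In chr4-2 the largest change was in PSAD1, part of the ferredoxin docking site, with a log2 fold change of -1.05 ± 0.14 (SE, adjusted p = 2.81e-07). PSAN, a subunit on the lumenal side, had the largest in quintuple, at -1.13 ± 0.23 (adjusted p = 0.000171). PSAE2 and PSAH1, the second copies of PSAE1 and PSAH2, had values of -0.02 and -0.08 in WT and were called in chr4-2 (-0.54 and -0.39), while no difference between genotypes in this change passed the test.

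Among the 9 photosystem II subunits, 8 were called lower in chr4-2, 3 in qem2, 8 in quintuple and 6 in WT. The share of all genes called lower was 23.1%, 17.5%, 21.0% and 19.2% in this order. PSBO1 and PSBO2 encode the protein that stabilises the manganese cluster of the oxygen-evolving complex, and PSBP1, PSBQ1 and PSBQ2 encode its other extrinsic subunits. PSBO2 measured 108, 123 and 94.2 CPM at 6 weeks in chr4-2, against 354, 210 and 196 CPM at 3 weeks, and its log2 fold change was -1.22 ± 0.21 (SE, adjusted p = 1.79e-05). In quintuple the value was -1.04 ± 0.21 (adjusted p = 0.00017) and in qem2 -0.87 ± 0.21 (adjusted p = 0.00177), with no overlap between the weeks in any genotype. PSBQ1 led in WT, at 286, 260 and 269 CPM at 6 weeks, against 478, 448 and 393 CPM at 3 weeks, with a log2 fold change of -0.69 ± 0.13 (adjusted p = 9.36e-05). PSBO1, the more highly expressed copy, measured 1103, 1194 and 986 CPM at 6 weeks in WT, against 1228, 1100 and 998 CPM at 3 weeks, which overlapped. Over the 9 subunits the log2 fold changes ran from -1.22 to -0.33 in chr4-2, from -0.87 to 0.01 in qem2, from -1.04 to -0.30 in quintuple and from -0.69 to -0.02 in WT, with PSBR, a subunit near the oxygen-evolving complex, at the upper end in the 3 mutants.

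Antenna genes included both members that fell in every genotype and members called in none. Of 4 LHCA genes, 3 were called lower in chr4-2, 2 in qem2, 3 in quintuple and 2 in WT. Over all genes the share called lower was 23.1%, 17.5%, 21.0% and 19.2% in this order. LHCA2 had the largest change among the called LHCA genes in every genotype, with log2 fold changes of -1.05 ± 0.17 (SE, adjusted p = 7.59e-06) in chr4-2, -0.51 ± 0.17 (adjusted p = 0.0203) in qem2, -0.84 ± 0.17 (adjusted p = 0.000189) in quintuple and -0.45 ± 0.17 (adjusted p = 0.0367) in WT. It measured 567, 626 and 482 CPM at 6 weeks in WT, against 843, 758 and 689 CPM at 3 weeks, with no overlap. The WT call was lost without replicate 1 or 2 at 3 weeks or replicate 1 or 3 at 6 weeks (adjusted p = 0.0684 to 0.157), and the qem2 call without replicate 1 or 3 at 3 weeks or replicate 2 at 6 weeks (adjusted p = 0.0627 to 0.0745). LHCA4, whose protein pairs with LHCA1 and carries far-red chlorophylls, was called in no genotype, with values of -0.35, 0.01, -0.40 and -0.07.

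Minor antenna genes were called lower in 3 of 4 members in chr4-2, in none in qem2, in 3 in quintuple and in none in WT by edgeR. At an unadjusted p under 0.05, 0 were lower in qem2 and 1 in WT, and DESeq2 called 0 in both. By edgeR, 23.1%, 17.5%, 21.0% and 19.2% of all genes were called lower in chr4-2, qem2, quintuple and WT. LHCB6, which helps to join LHCII to photosystem II, measured 433, 536 and 381 CPM at 6 weeks in chr4-2, against 1274, 808 and 738 CPM at 3 weeks. In quintuple it measured 460, 355 and 429 CPM at 6 weeks, against 763, 621 and 777 CPM at 3 weeks. The weeks did not overlap in either mutant, and the log2 fold change was -1.06 ± 0.20 (SE, adjusted p = 4.35e-05) in chr4-2 and -0.80 ± 0.20 (adjusted p = 0.00139) in quintuple. In qem2 and WT its values were -0.37 and -0.43.

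The 9 major LHCII genes held both the highest and some of the lowest members. They were called lower in 5 members in chr4-2, 1 in qem2, 6 in quintuple and 1 in WT. The share of all genes called lower was 23.1%, 17.5%, 21.0% and 19.2% in the same order. The counts in qem2 and WT were below that share. LHCB1.3, the highest gene of the tables per kilobase, measured 8744, 8066 and 6321 CPM at 6 weeks in chr4-2, against 13260, 7758 and 7832 CPM at 3 weeks. In WT it measured 9642, 11880 and 9033 CPM at 6 weeks, against 8836, 8106 and 7394 CPM at 3 weeks. Every 6-week WT library lay above every 3-week WT library, while the weeks overlapped in chr4-2. The log2 fold changes of LHCB1.3 were -0.32 in chr4-2, 0.24 in qem2, -0.14 in quintuple and 0.33 in WT, none of which passed the test.

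LHCB1.4 behaved otherwise. It measured 30.0, 28.7 and 15.7 CPM at 6 weeks in chr4-2, against 336, 110 and 110 CPM at 3 weeks, and 45.3, 20.9 and 26.5 CPM at 6 weeks in qem2, against 163, 83.4 and 140 CPM at 3 weeks. In quintuple it measured 20.8, 16.4 and 14.0 CPM at 6 weeks, against 266, 116 and 204 CPM at 3 weeks, and in WT 40.5, 37.0 and 31.6 CPM at 6 weeks, against 193, 123 and 111 CPM at 3 weeks. No genotype showed an overlap between the weeks. The log2 fold change was -2.89 ± 0.48 (SE, adjusted p = 1.07e-05) in chr4-2, -2.15 ± 0.48 (adjusted p = 0.000749) in qem2, -3.51 ± 0.49 (adjusted p = 1.04e-06) in quintuple and -1.97 ± 0.46 (adjusted p = 0.00104) in WT.

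LHCB1.1, a near copy of LHCB1.3, measured 409, 175 and 210 CPM at 6 weeks in quintuple, against 1147, 589 and 1531 CPM at 3 weeks, and 733, 586 and 603 CPM at 6 weeks in WT, against 1654, 1123 and 1104 CPM at 3 weeks. Neither genotype showed an overlap between the weeks. It was called lower in chr4-2 and quintuple. With counts summed over the 5 LHCB1 genes, the family was called lower in chr4-2 alone of the 4 genotypes, at -0.56 ± 0.21 on the log2 scale (SE, adjusted p = 0.0305), and had values of 0.05 in qem2, -0.43 in quintuple and 0.09 in WT. The difference between chr4-2 and WT in this change, -0.64 ± 0.30 (SE), did not pass the test (adjusted p = 0.635). The summed LHCB2 genes were called lower in chr4-2 (-0.83 ± 0.33, adjusted p = 0.0412) and quintuple (-0.86 ± 0.33, adjusted p = 0.0374) and had values of -0.49 in qem2 and -0.36 in WT.

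**Figure D4:**
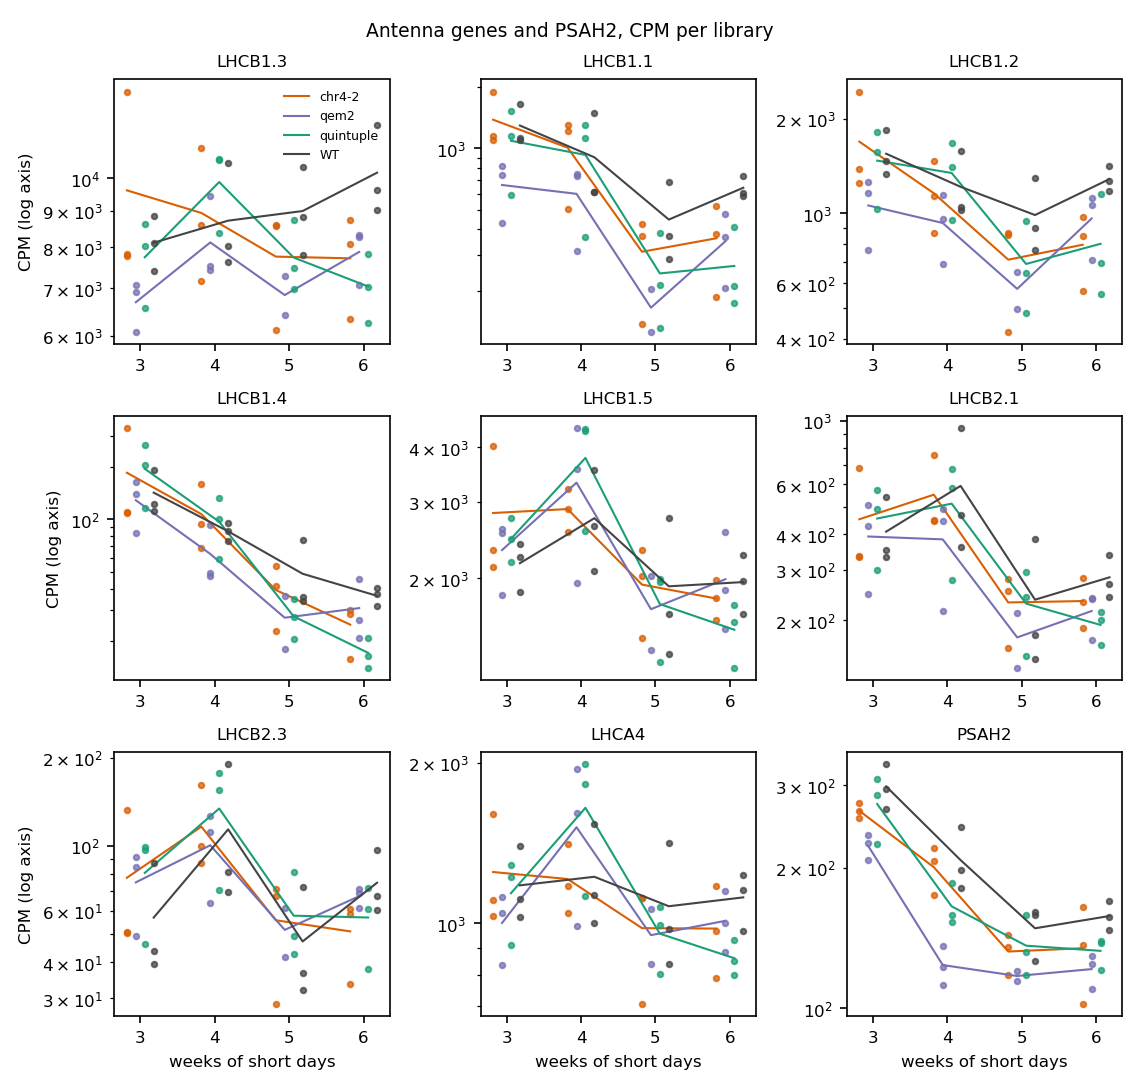
CPM of 8 antenna genes and PSAH2 per library on logarithmic vertical axes, by weeks of short days (horizontal axis), coloured by genotype, with lines through the group means. LHCB1.3 stayed between 6076 and 13260 CPM, LHCB1.4 fell to 45.3 CPM or less at 6 weeks in every genotype, and LHCB2.3 and LHCA4 had their highest group means at 4 weeks in several genotypes.

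The ratio of gene copies within a family changed between the weeks in 14 of 15 pairs compared. These ratios were chosen after the values of the members had been seen. Ratios of other gene pairs were not tested, so there is no background share to set beside this count. For the RBCS, LHCB1 and LHCB2 pairs the split of counts between copies is uncertain. The log2 ratio of RBCS1B over RBCS1A was -7.65 at 6 weeks and -4.95 at 3 weeks (n = 12 libraries each), a difference of -2.70 (exact two-sided permutation test within genotypes, adjusted p = 2.34e-05 over 15 pairs, from the smallest p that 160000 permutations can give, 1.25e-05). The difference was -2.66 in chr4-2, -2.28 in qem2, -3.22 in quintuple and -2.65 in WT. RBCS1A took 90.3 ± 1.02% of the summed RBCS CPM at 6 weeks in WT and 81.0 ± 1.37% at 3 weeks (SD, n = 3 each).

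LHCB1.4 over LHCB1.3 changed by -2.59 and LHCB1.1 over LHCB1.3 by -1.53 on the log2 scale. LHCB1.3 took 72.1 ± 3.50% of the summed LHCB1 CPM at 6 weeks in WT and 61.3 ± 1.87% at 3 weeks (SD, n = 3 each). Among photosystem genes, PSAH2 over PSAH1 changed by -0.76 and PSBO2 over PSBO1 by -0.64, whereas PSAE2 over PSAE1 changed by 0.60 and PSBQ2 over PSBQ1 by 0.35. LHCB2.3 over LHCB2.1 changed by 0.70, with 0.39 in chr4-2 and 0.98 in WT. In 14 of 15 pairs the adjusted p was 0.000429 or less by the exact permutation test, and in those pairs the difference had the same sign in all 4 genotypes. The pair left was PSAD2 over PSAD1, which differed by 0.06 (adjusted p = 0.353). Leaving out any 1 library kept the sign of every difference.

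**Figure D5:**
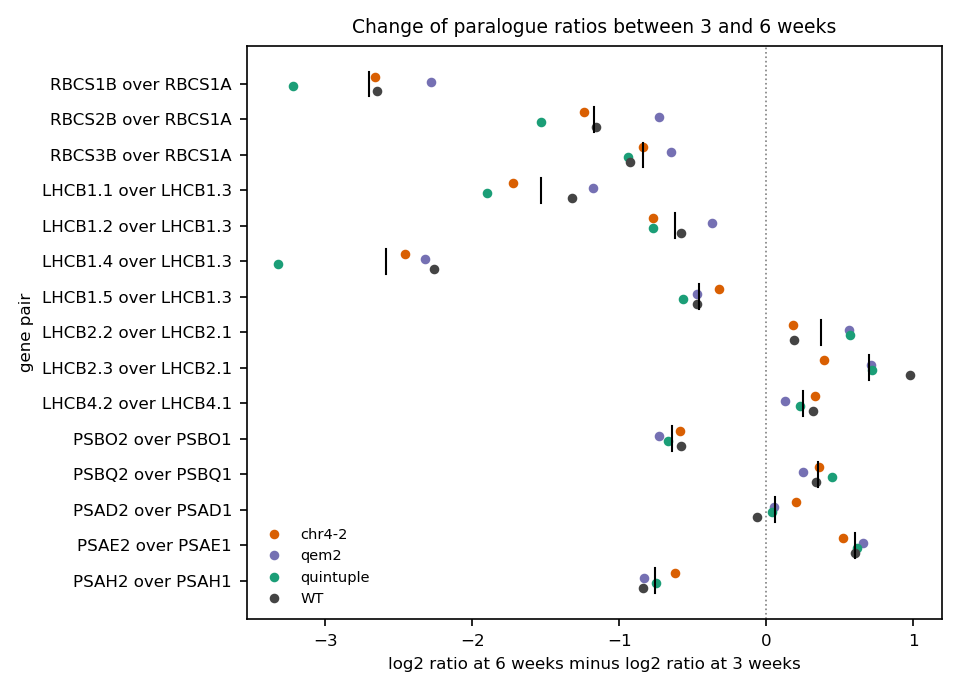
Change of the log2 ratio of gene copies between 6 and 3 weeks (horizontal axis, ratio at 6 weeks minus ratio at 3 weeks) for 15 pairs (rows). Points are genotypes, vertical ticks are the mean over genotypes, and the dotted line marks no change. The points of RBCS1B over RBCS1A lie between -3.22 and -2.28, and those of PSAD2 over PSAD1 lie on both sides of 0.

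Summed over the members, the level at 3, 4 and 5 weeks averaged 41950, 33910 and 24810 CPM in chr4-2, 29790, 30800 and 22160 CPM in qem2, 35130, 37060 and 24080 CPM in quintuple and 37170, 32950 and 28310 CPM in WT. In qem2 and quintuple the mean sum was thus no lower at 4 than at 3 weeks. From 3 to 4 weeks, 20 members were called lower in chr4-2 (15.4% of all genes called lower), 10 in qem2 (21.0%), 9 in quintuple (21.6%) and 14 in WT (17.4%), and the Rubisco members made up 5, 4, 5 and 5 of these. The counts in qem2 and quintuple were close to the share of all genes. RBCS1B led in each genotype, measuring 52.4, 24.9 and 9.34 CPM at 4 weeks in chr4-2 and 15.1, 23.2 and 12.9 CPM at 4 weeks in WT. Its log2 fold change at 4 against 3 weeks was -2.30 ± 0.48 (SE, adjusted p = 0.000635) in chr4-2, -3.48 ± 0.53 (adjusted p = 6.33e-06) in qem2, -3.77 ± 0.53 (adjusted p = 1.78e-06) in quintuple and -2.78 ± 0.50 (adjusted p = 8.09e-05) in WT. In a fit of the compared libraries alone, the chr4-2 count was 2 (7.61% of all genes) and RBCS1B was not called (adjusted p = 0.0532). It was 6 without replicate 1 at 3 weeks, 10 without replicate 2 at 4 weeks and 8 without replicate 3 at 4 weeks. In WT the count was 7 lower and 1 higher without replicate 1 at 3 weeks and 9 without replicate 3 at 4 weeks. In qem2 it was 7 without replicate 3 at 3 weeks, and in quintuple 6 without replicate 3 at 3 weeks.

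Several antenna genes were instead highest at 4 weeks. The highest group mean was at 4 weeks in 4 members in chr4-2, 13 in qem2, 14 in quintuple and 7 in WT, and at 3 weeks in 39, 30, 29 and 35 members. LHCB1.5, LHCB2.2 and LHCB2.3 were highest at 4 weeks in all 4 genotypes. LHCA4 measured 986, 1611 and 1942 CPM at 4 weeks in qem2, against 1122, 834 and 1047 CPM at 3 weeks. The weeks overlapped, and LHCA4 was the only member called higher at 4 weeks in qem2, with a log2 fold change of 0.60 ± 0.24 (SE, adjusted p = 0.0387, where 22.9% of all genes were called higher). The call was lost without replicate 2 or 3 at 3 weeks, without replicate 2 or 3 at 4 weeks and in a fit of the compared libraries alone (adjusted p = 0.0663 to 0.309). In quintuple LHCB4.2, a minor antenna gene, measured 395, 660 and 738 CPM at 4 weeks, against 418, 284 and 396 CPM at 3 weeks, which overlapped, and was the only member called higher there, with a log2 fold change of 0.71 ± 0.27 (adjusted p = 0.0343, where 23.8% of all genes were called higher). That call too was lost without replicate 2 or 3 of either week and in a fit of the compared libraries alone (adjusted p = 0.0534 to 0.176). Libraries of chr4-2 and WT gave no member called higher at 4 weeks by edgeR or DESeq2 (14.5% and 17.5% of all genes), and 0 and 1 members at an unadjusted p under 0.05. Replicates within the 4-week groups differed widely, as LHCB2.3 measured 69.7, 190 and 81.2 CPM in WT.

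From 4 to 5 weeks, 19 members were called lower in chr4-2 (6.20% of all genes), 27 in quintuple (7.36%) and 1, PSAH2, in WT (3.48%). No member was called in qem2 (0.230% of all genes in either direction), where 19 were lower at an unadjusted p under 0.05 and 0 by DESeq2. In WT, PSAH2 measured 158, 126 and 160 CPM at 5 weeks, against 197, 244 and 181 CPM at 4 weeks, with no overlap and a log2 fold change of -0.48 ± 0.14 (SE, adjusted p = 0.0336). RCA measured 300, 214 and 287 CPM at 5 weeks in chr4-2, against 563, 537 and 355 CPM at 4 weeks, and the weeks did not overlap.

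These counts rested on few libraries. In fits of the compared libraries alone they were 4 in chr4-2 (2.70% of all genes), 3 in quintuple (1.89%) and 0 in WT (0.231%), and DESeq2 gave 3 in WT. The chr4-2 count was 2 without replicate 1 at 4 weeks or replicate 2 at 5 weeks and 8 without replicate 3 at 5 weeks. The quintuple count was 3 without replicate 2 at 4 weeks, 0 without replicate 3 at 4 weeks or replicate 2 at 5 weeks, and 6 without replicate 3 at 5 weeks. The WT call was lost without replicate 2 at 4 weeks or replicate 2 or 3 at 5 weeks, and the WT count was 2 without replicate 1 at 4 weeks and 3 without replicate 1 at 5 weeks. In qem2, 10 members were called without replicate 1 at 4 weeks.

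From 5 to 6 weeks edgeR and DESeq2 called no member in any genotype. At an unadjusted p under 0.05, 4 members were higher in qem2 and 1 in WT. The members' median log2 fold change was 0.02 in chr4-2, 0.24 in qem2, -0.02 in quintuple and 0.15 in WT, and the share of all genes called in either direction was 0.291%, 0.0511%, 1.92% and 0.353%. Without replicate 2 of qem2 at 6 weeks, 2 members were called higher in qem2.

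Few members were called between genotypes at any week. In quintuple against WT at 6 weeks, 2 members were called lower (3.48% of all genes) and none higher (2.82%). The count called lower was close to the share of all genes. PSAG, a photosystem I subunit that anchors the LHCA belt, measured 258, 210 and 225 CPM in quintuple, against 322, 328 and 302 CPM in WT, a log2 fold change of -0.46 ± 0.13 (SE, adjusted p = 0.0271). PSBO1 measured 870, 664 and 766 CPM in quintuple, against 1103, 1194 and 986 CPM in WT, a log2 fold change of -0.51 ± 0.16 (adjusted p = 0.0439). For both genes every quintuple library lay below every WT library. All 43 members had a log2 fold change below 0, with a median of -0.42, and 26 were lower at an unadjusted p under 0.05. The members were measured in the same libraries, so these signs and counts are not independent. The count of calls was 8 by DESeq2 (4.09% of all genes), 13 in a fit of the compared libraries alone (3.15%), 6 without replicate 1 of quintuple, and 0 without replicate 2 or 3 of quintuple or replicate 1 or 2 of WT.

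No member was called in quintuple against WT at 3, 4 or 5 weeks by edgeR or DESeq2, where 0.404%, 12.4% and 6.86% of all genes were called in either direction and 1, 2 and 4 members were lower at an unadjusted p under 0.05. At 5 weeks libraries of the same replicate number deviated together, with correlations over genes of 0.133 to 0.208. A replicate block was chosen after this was seen in the same data, so calls with it are not independent evidence. With the replicate as a block in a fit of the compared libraries, 6 members were called lower (2.32% of all genes). They were LHCB1.1 (log2 fold change -0.93 ± 0.09, SE, adjusted p = 0.00633), LHCB1.2, LHCB6, PSAK, PSAL and PSBP1. LHCB1.1 measured 384, 131 and 214 CPM in quintuple, against 684, 286 and 371 CPM in WT, in the order of replicates 1 to 3, so that the groups overlapped but each quintuple library was the lower of its pair. With the block in the fit of all 16 groups, 0 were called. In the authors' deposited table of quintuple and WT, the median log2 fold change of the 43 members was -0.12, 0.02, -0.28 and -0.42 at 3, 4, 5 and 6 weeks. All 43 were below 0 at 6 weeks in the authors' deposited table, and none of the 43 was in any of the authors' 12 deposited lists of differential genes.

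In chr4-2 against WT, edgeR and DESeq2 called no member at 3, 4, 5 or 6 weeks, where 0.818%, 1.09%, 2.32% and 4.01% of all genes were called in either direction. At an unadjusted p under 0.05, 0, 0, 3 and 16 members were lower and none was higher. The median log2 fold change of the members was 0.14, 0.04, -0.21 and -0.32 at these weeks. At 6 weeks all 43 were below 0, but the members were measured in the same libraries, so these signs are not independent. LHCB1.3 measured 8744, 8066 and 6321 CPM in chr4-2 at 6 weeks, against 9642, 11880 and 9033 CPM in WT. Libraries of the same replicate number deviated together at 4 and 5 weeks, though the labels give no source of pairing. Their correlations over genes were 0.174 to 0.464 at 4 weeks and 0.2 to 0.321 at 5 weeks. With a replicate block, chosen after this was seen, in a fit of the compared libraries, 0 members were called at 4 weeks (0.771% of all genes in either direction). At 5 weeks 1, PSAD2, was called lower with the block (0.686% of all genes), at -0.38 ± 0.07 (SE, adjusted p = 0.0498).

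In qem2 against quintuple, edgeR and DESeq2 called no member at any week, where 1.05%, 1.23%, 1.41% and 2.86% of all genes were called in either direction at 3, 4, 5 and 6 weeks. All 43 members had a log2 fold change below 0 at both 3 and 4 weeks, with medians of -0.22 and -0.26. The medians were -0.10 at 5 weeks and 0.17 at 6 weeks, when 42 members were above 0. At an unadjusted p under 0.05, 4, 6 and 0 members were lower at 3, 4 and 5 weeks and 3 were higher at 6 weeks. Without replicate 2 of qem2 at 6 weeks, 2 members were called higher at that week.

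Libraries of the same number deviated together at 3 and 4 weeks in qem2 and quintuple. Their correlations over genes were 0.126 to 0.252 at 3 weeks and 0.363 to 0.542 at 4 weeks. A replicate block was chosen after this was seen in the same data, so calls with it are not independent evidence. With the replicate as a block in a fit of the compared libraries, 33 members were called lower in qem2 at 3 weeks (7.72% of all genes) and 11 at 4 weeks (1.57%). The differences were small, with a median of -0.23 among the members called at 3 weeks and of -0.39 at 4 weeks. LHCB1.1 measured 737, 431 and 814 CPM in qem2 at 3 weeks, against 1147, 589 and 1531 CPM in quintuple, in the order of replicates 1 to 3. The groups overlapped, while within each replicate number the qem2 library was the lower, and the blocked log2 fold change was -0.67 ± 0.07 (SE, adjusted p = 0.000245). RBCS1A measured 2576, 2227 and 2559 CPM in qem2 at 3 weeks, against 2978, 2488 and 3451 CPM in quintuple, again with each qem2 library the lower of its pair. With the replicate as a block across all 16 groups, 0 of 43 were called at either week.

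The fall between 3 and 6 weeks itself was set against that of the comparison genotype. For chr4-2 minus WT, all 43 differences in log2 fold change were below 0, with a median of -0.44, but none was called by edgeR or DESeq2 (0.133% of all genes in either direction), and 12 were at an unadjusted p under 0.05. For quintuple minus WT all 43 were below 0, with a median of -0.34, none was called by either tool (1.04%) and 1 was at an unadjusted p under 0.05. For qem2 minus quintuple all 43 were above 0, with a median of 0.38, none was called by either tool (0.107%) and 8 were at an unadjusted p under 0.05. Without replicate 2 of qem2 at 6 weeks, 2 were called higher. The chr4-2 and quintuple comparisons share the WT libraries and the qem2 and quintuple comparisons share the quintuple libraries, so their signs are not independent.

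Other genes of photosynthesis were taken from lists chosen alongside the members. At 6 against 3 weeks, 23.1%, 17.5%, 21.0% and 19.2% of all genes were called lower in chr4-2, qem2, quintuple and WT. Of 17 Calvin cycle and carbonic anhydrase genes, 14 were called lower at 6 than at 3 weeks in chr4-2, 9 in qem2, 15 in quintuple and 11 in WT. SHM1, a photorespiratory enzyme of mitochondria, belonged to a list of 11 genes of which 9, 7, 9 and 8 were called lower in these genotypes, and it measured 109 ± 8.68 CPM at 6 weeks and 292 ± 31.6 CPM at 3 weeks in WT (SD, n = 3 each). Its log2 fold change in WT was -1.42 ± 0.17 (SE, adjusted p = 8.36e-08). Of 14 genes of electron transport and ATP synthase, 11, 6, 10 and 7 were called lower, led in WT by LFNR2, a ferredoxin-NADP reductase, at -1.42 ± 0.16 (adjusted p = 1.13e-08). Of 21 chlorophyll synthesis genes, 15, 11, 14 and 10 were called lower and 1 higher in each genotype, and CHLI1, a magnesium chelatase subunit, measured 215 ± 18.7 CPM at 6 weeks and 398 ± 36.6 CPM at 3 weeks in WT. Of 11 further nuclear photosystem genes, 6, 4, 7 and 5 were called lower, among them PSBS, which dissipates excess light, at -0.80 ± 0.18 (adjusted p = 0.000563) in WT. Plastid-encoded photosystem genes were not analysed here.

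Markers of other tissues moved in the same libraries. Of all genes, 22.9%, 18.0%, 20.5% and 18.8% were called higher at 6 weeks in chr4-2, qem2, quintuple and WT. The shares called lower were 23.1%, 17.5%, 21.0% and 19.2%. The 7 shoot meristem markers summed to 290 to 328 CPM at 6 weeks and 174 to 197 CPM at 3 weeks in WT, and 5, 3, 5 and 5 of 7 were called higher at 6 weeks in chr4-2, qem2, quintuple and WT. STM, which keeps meristem cells undifferentiated, measured 114 ± 5.93 CPM at 6 weeks and 44.9 ± 3.23 CPM at 3 weeks in WT. The 8 markers of leaf primordia summed to 1148 to 1419 CPM at 6 weeks and 765 to 838 CPM at 3 weeks in WT, with 6, 3, 6 and 7 called higher in the 4 genotypes. The 9 vascular markers summed to 119 to 127 CPM at 6 weeks and 259 to 288 CPM at 3 weeks in WT, with 7, 8, 7 and 7 called lower. No marker of these lists was at 0 in a group, and in qem2 the meristem sums were 263 to 327 CPM at 6 weeks and 244 to 270 CPM at 3 weeks, a smaller difference. The part of tissue makeup in the members' change was not tested.

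Across the 16 group means, 29 of 43 members had a Pearson correlation over 0.9 with the members' mean profile, and the median was 0.935. The mean profile contains each member itself, which raises these values, and the share of other genes over 0.9 was not determined. The lowest were LHCB2.3 (0.536), LHCB1.3 (0.537), LHCB4.2 (0.651), LHCA4 (0.684) and LHCB1.5 (0.731), all antenna genes, and the highest were PSBW (0.987) and LHCB1.1 (0.986). Among 13246 other genes with a mean of at least 10 CPM, the profiles most like the members' mean were those of PETC, the Rieske protein of the cytochrome b6f complex (0.969), and PRK, the Calvin cycle kinase (0.969). CaS (0.962), LQY1 (0.960), THX (0.959), PTAC16 (0.956), AT2G47450 (0.955), HCF244 (0.952), AT5G51110 (0.950) and AT2G38870 (0.947) followed. These correlations describe 16 group means that share their libraries' depth and scaling.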

How the data were processed

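RNA was measured in 47 libraries of shoot apices from 16 groups. The deposited table holds raw counts, whole reads of each gene, in 48 columns named by sample, per the file headers. Per the submitters' processing notes the TAIR10 build was used with TopHat2, HTSeq, SAMtools and DESeq2, without settings, and strand use is not given in the sources used here. The authors' deposited tables hold log2 fold changes, of which those of quintuple and WT were read, and their p-values were not used.

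Counts were scaled by TMM (factors 0.874 to 1.05), filtered by filterByExpr and tested in edgeR 4.0.16 (R 4.3.3) with 1 quasi-likelihood fit of all 16 groups and no replicate block. Genes were called at a Benjamini-Hochberg adjusted p under 0.05 over 19566 genes. The common biological coefficient of variation was 14.7%. The SE of edgeR log2 fold changes was back-calculated as the absolute log2 fold change over the square root of the test's F statistic. CPM use the scaled totals. Paralogue ratios were log2 ratios of CPM with no pseudocount, and profile likeness used log2(CPM + 0.5). Alternatives were DESeq2 1.42.0, other scaling, no filter, fits restricted to the libraries compared, a replicate block and the omission of each library. Same-numbered libraries deviated together in every pair (correlation over 0.1) in chr4-2 against WT at 4 and 5 weeks, qem2 against quintuple at 3 and 4 weeks and quintuple against WT at 5 weeks. The labels give no source of pairing, so the pairing comes from the data. Libraries of unlike number were not compared, and the correlations within a comparison are not independent, as they use deviations from shared group means. On simulated data for WT at 6 against 3 weeks, with 200 of 19188 genes changed, 41.8% of 1.5-fold, 79.1% of 2-fold and 98.5% of 4-fold changes were recovered, and 2.01% of calls were false. In the real comparison 19.2% of all genes were called lower and 18.8% higher, so these rates may not carry over to it.

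All 43 members could be named. Fold changes with adjusted p were given for the called member of largest change in each role and comparison, and for other lists up to 4 called genes of smallest adjusted p. Fold changes given beyond that rule, the family sums and blocked values included, were chosen after the values were seen. The members and lists were chosen with earlier results of these data known. Exon lengths, promoters and coding sequences came from RefSeq TAIR10.1 by locus tag, and the files hold no coordinates.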

Additional observations from a re-analysis of the deposited data

How the results depend on the processing

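The direction of 31 member results (the member with the largest called change of each role at 6 against 3 weeks, RBCS1B, LHCA4, LHCB4.2 and PSAH2 between adjacent weeks as called above, and PSAG and PSBO1 in quintuple against WT) was kept under other scaling, no filter, DESeq2, the replicate block, fits of the compared libraries alone and the omission of each library, and that of 15 paralogue ratios under the omission of each library. Counts of members called between 6 and 3 weeks stayed within 1.5 times the reported count under other scaling, no filter, DESeq2, the replicate block and fits of the compared libraries alone. When 1 library was left out they ranged from 28 to 39 in chr4-2, 9 to 18 in qem2, 27 to 36 in quintuple and 13 to 23 in WT. For 4 against 3 weeks the ranges were 6 to 22 in chr4-2, 7 to 16 in qem2, 6 to 13 in quintuple and 8 to 16 in WT, and for 5 against 4 weeks 2 to 25, 0 to 10, 0 to 35 and 0 to 3. For 6 against 5 weeks in qem2, qem2 against quintuple at 6 weeks and the qem2 minus quintuple difference the range was 0 to 2, and for quintuple against WT at 6 weeks 0 to 6. Fits of the compared libraries alone gave 2 for chr4-2 at 4 against 3 weeks, and 4 in chr4-2, 3 in quintuple and 0 in WT at 5 against 4 weeks. The WT count there was 3 by DESeq2 and 2 with the replicate block. For quintuple against WT at 6 weeks the count was 8 by DESeq2, 8 with the block, 13 in the fit of the compared libraries and 8 with both. The block in fits of the compared libraries, chosen after seeing the data, gave 1 for chr4-2 against WT at 3 weeks, 1 at 5 weeks and 14 at 6 weeks, 33 and 11 for qem2 against quintuple at 3 and 4 weeks, and 2 and 6 for quintuple against WT at 4 and 5 weeks. At the weeks where same-numbered libraries did not deviate together (3 and 6 weeks in chr4-2, 4 and 6 weeks in quintuple against WT) these libraries share only a number. The calls of LHCA2 in qem2 and WT, LHCA4 in qem2 and LHCB4.2 in quintuple at 4 against 3 weeks, PSAH2 in WT at 5 against 4 weeks and PSAG and PSBO1 in quintuple against WT were lost when single libraries were left out. Those of LHCA4, LHCB4.2, PSAH2 and RBCS1B in chr4-2 at 4 against 3 weeks were lost in fits of the compared libraries, and that of PSBO1 also with the block in the fit of the compared libraries. Where counts differ between settings, the cause was not tested. The shallowest library held 2910606 reads, and changes under 2-fold were often missed on simulated data in which few genes changed. Intervals cover the spread between pools of apices, and near-identical copies limit the split of counts.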

Other observations

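Of 21 regulators of light responses, 6 were called higher and 6 lower in chr4-2, 4 and 3 in qem2, 4 and 8 in quintuple and 5 and 5 in WT between 6 and 3 weeks, by edgeR. Over all genes tested, 22.9% were called higher and 23.1% lower in chr4-2, 18.0% and 17.5% in qem2, 20.5% and 21.0% in quintuple and 18.8% and 19.2% in WT. PHYB, a red-light receptor, measured 224 ± 17.8 CPM at 6 weeks and 106 ± 8.29 CPM at 3 weeks in WT (SD, n = 3 each), with a log2 fold change of 1.08 ± 0.13 (SE, adjusted p = 1.02e-07). PIF3, a factor that represses greening in the dark, had a log2 fold change of 1.25 ± 0.13 (adjusted p = 2.13e-09) in WT. HFR1, which restrains shade responses, measured 11.88 ± 2.201 CPM at 6 weeks and 0.0454 ± 0.0786 CPM at 3 weeks in WT. BBX21 had a log2 fold change of 0.67 ± 0.13 (adjusted p = 0.000115) in WT. The members of the photosystem and Rubisco set had a median of -0.45 in the same comparison.

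The 10 circadian clock genes had median log2 fold changes of 0.21 in chr4-2, -0.06 in qem2, -0.11 in quintuple and 0.19 in WT. Such medians do not show that single clock genes were unchanged. At 4 against 3 weeks, 4, 3, 3 and 4 of the 10 were called higher in these genotypes and 0 lower. Of all genes, 14.5%, 22.9%, 23.8% and 17.5% were called higher there, and 15.4%, 21.0%, 21.6% and 17.4% lower. Of 4 tested genes of dark and sugar starvation, 1 was called higher at 6 against 3 weeks in chr4-2, qem2 and WT. That in WT was DRM1, at 168 ± 23.5 CPM at 6 weeks and 40.9 ± 3.53 CPM at 3 weeks. In quintuple against WT at 4 weeks all 4 were called higher, with a median log2 fold change of 3.50. In that comparison 12.4% of all genes were called in either direction, and no member was called. CA1, a carbonic anhydrase, measured 2.26 ± 0.969 CPM at 6 weeks and 49.1 ± 7.10 CPM at 3 weeks in WT, a log2 fold change of -4.30 ± 0.66 (adjusted p = 6.21e-06), against -3.19 for RBCS1B, the lowest of the members in WT. Of 10 tested genes of light stress and chlorophyll breakdown, 5, 3, 5 and 3 were called lower in chr4-2, qem2, quintuple and WT. Of 6 epidermal markers, 1, 2, 1 and 2 were called higher and 1 was called lower in each genotype. Of 7 stomatal markers, 1 was called lower in chr4-2, qem2 and quintuple and 1 was called higher in qem2. Over all genes, 23.1%, 17.5%, 21.0% and 19.2% were called lower at 6 against 3 weeks in chr4-2, qem2, quintuple and WT. The shares called higher were 22.9%, 18.0%, 20.5% and 18.8%.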
